A study of Sorghum bicolor with 5 samples.

Results

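The core enzymes of C4 photosynthesis were followed at the RNA level in young sorghum leaves, as 7 of the 35567 genes in the count tables. They were chosen by ID: SORBI_3003G234200 and SORBI_3003G234400 for carbonic anhydrase, SORBI_3010G160700 for the C4 form of phosphoenolpyruvate (PEP) carboxylase, SORBI_3007G166300 for NADP-malate dehydrogenase, SORBI_3003G036200 for the C4 form of NADP-malic enzyme, SORBI_3009G132900 for pyruvate, phosphate dikinase (PPDK) and SORBI_3005G042000 for the small subunit of Rubisco. By their IDs they lie on chromosomes 3, 5, 7, 9 and 10. The enzyme names came with the list of IDs. The gene table used here, of the same NCBIv3 assembly, matched 0 of the IDs in the count tables, so the names could not be checked and gene lengths, positions and sequences are not given.

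Sorghum fixes carbon in a cycle shared between cell types. In mesophyll cells, carbonic anhydrase turns CO2 into bicarbonate, PEP carboxylase adds it to PEP, and NADP-malate dehydrogenase reduces the product to malate. Malate moves to the bundle sheath, where NADP-malic enzyme releases CO2 next to Rubisco, and PPDK of the mesophyll rebuilds PEP from the pyruvate that returns. Maize and sorghum leaves hold these transcripts in large amounts, and levels rise as a leaf greens and matures.

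The leaves came from 5 greenhouse plants in the Tx430 background, with 1 RNA library each. Both lines are third-generation progeny of Tx430 crossed with *msh1* memory plants, which had lost an RNAi transgene against *MSH1* but kept its heritable effects, and no library of unmodified Tx430 was analysed here. The low line, epi-F3 low (line 15, slower growth), has 3 plants and the high line, epi-F3 high (line 68, faster growth), has 2, which the titles number as plants 1 and 3. Growth conditions were 28°C by day, 22°C by night and 14 h of light, and the labels give a plant age of 4 weeks.

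Genes held between 48372266 and 68979436 counts per library. Levels are in CPM, a gene's counts relative to library size, scaled between libraries by TMM, a trimmed mean that balances differences in composition. Summed levels of genes listed in the study's table were each far higher in 1 epi-F3 high library than elsewhere. The study chose its table on these samples, so the sums are not independent evidence that a library stands apart. For *MCM2* to *MCM7*, 6 genes of the DNA replication helicase that mark dividing cells, the sum was 340.2 CPM in epi-F3 high replicate 2. In the other 4 libraries it was 25.9 to 47.1 CPM. The summed level of 44 genes paired with plastid- or mitochondrion-encoded Arabidopsis genes was highest in epi-F3 high replicate 1, at 1219 CPM, against 84.8 to 263 CPM elsewhere.

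By counts, the C4 genes were among the highest of every leaf. None of the 7 was called as different between the lines, where the test called only 0.00433% of all tested genes. PPDK had more counts than any other gene in each of the 5 libraries. Of the 10 genes with the most counts, 4 were PPDK, PEP carboxylase, NADP-malic enzyme and the Rubisco small subunit in every library. All members but the carbonic anhydrase SORBI_3003G234400 ranked among the 100 highest in every library. Ranks and shares here are by counts, which also grow with gene length, so they do not order the transcripts by number of molecules.

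Together the 7 genes took 2.73, 2.98 and 2.91% of gene counts in the epi-F3 low plants, given here and below as replicates 1, 2 and 3, and 2.88 and 1.90% in the epi-F3 high plants, given as replicates 1 and 2. The line means of the share were 2.87 ± 0.133% (SD, n = 3) for epi-F3 low and 2.39 ± 0.698% (SD, n = 2) for epi-F3 high. Epi-F3 high replicate 1 lay within the range of epi-F3 low, and only replicate 2 lay below it. Its share had a 95% Wilson interval of 1.893 to 1.90%, and that of epi-F3 low replicate 1, the next lowest, 2.72 to 2.73%. These intervals cover counting error only. In epi-F3 high replicate 2 the mesophyll members held 1.34% of the counts and in the others 1.93 to 2.22%, and the bundle sheath members, NADP-malic enzyme and the Rubisco small subunit, held 0.556% and 0.76 to 0.836%. Fewer cells of a type and less RNA per cell cannot be told apart in whole leaf RNA, and the part of the high *MCM* level of this plant in the low share was not tested.

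**Figure D1:**
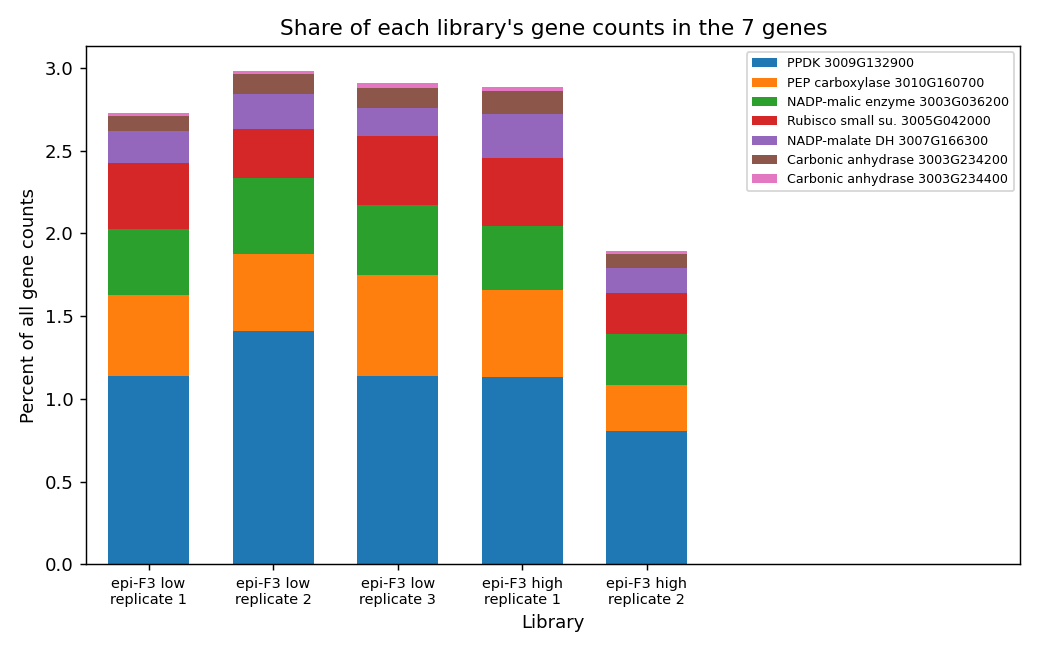
Percent of all gene counts (y axis, from 0) taken by each of the 7 genes, stacked, in the 5 libraries (x axis). The stack of epi-F3 high replicate 2 reaches 1.90%, and the other 4 reach 2.73 to 2.98%.

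Carbonic anhydrase supplies the bicarbonate that PEP carboxylase uses, and 1 of its 2 genes here drew several times the counts of the other, with length not taken into account. SORBI_3003G234200 stood at 872, 1253 and 1273 CPM in the epi-F3 low plants and at 1348 and 802 CPM in the epi-F3 high plants. The epi-F3 high plants were the highest and the lowest of the 5, on either side of all epi-F3 low plants. SORBI_3003G234400 stood at 162, 236 and 325 CPM in epi-F3 low and at 228 and 187 CPM in epi-F3 high. Both epi-F3 high plants lay inside the range of epi-F3 low, whose highest plant was 2.01-fold above its lowest. The count ratio of SORBI_3003G234200 to SORBI_3003G234400 was 5.39, 5.31 and 3.92 in epi-F3 low and 5.91 and 4.29 in epi-F3 high. Their IDs are 2 places apart in the order of loci. The authors kept only reads that map to 1 place, so any stretch identical between related genes would lower the counts of both, by an amount not known here.

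PEP carboxylase, which makes the first product of the cycle, varied most among the 7 genes over the 5 libraries. It stood at 4807, 4932 and 6438 CPM in the epi-F3 low plants and at 5221 and 2540.0 CPM in the epi-F3 high plants. Epi-F3 high replicate 1 lay inside the range of epi-F3 low, while replicate 2 was below all 3 and 2.06-fold below replicate 1. The line means were 5393 ± 908 CPM (SD, n = 3) and 3881 ± 1896 CPM (SD, n = 2). NADP-malate dehydrogenase, the next step, stood at 1879, 2246 and 1762 CPM in epi-F3 low and at 2695 and 1355 CPM in epi-F3 high. Again the epi-F3 high plants were the highest and the lowest of the 5, 1.99-fold apart. The line means of NADP-malate dehydrogenase, 1962 ± 252 CPM (SD, n = 3) and 2025 ± 948 CPM (SD, n = 2), were closer to each other than the plants of either line.

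NADP-malic enzyme, which frees CO2 in the bundle sheath, had the smallest SD of log2 CPM of the 7 genes over the 5 plants, although not within epi-F3 high. It stood at 3887, 4930.3 and 4414 CPM in the epi-F3 low plants and at 3892 and 2827 CPM in the epi-F3 high plants. Epi-F3 high replicate 1 was at the level of the lowest epi-F3 low plant. PPDK, which regenerates PEP, stood at 11184, 15039 and 11916 CPM in epi-F3 low and at 11289 and 7389 CPM in epi-F3 high. It took 1.41% of all gene counts in epi-F3 low replicate 2 (95% Wilson interval 1.408 to 1.414%) and 0.807% in epi-F3 high replicate 2 (0.805 to 0.809%). Epi-F3 high replicate 1 was within the range of epi-F3 low for PPDK too. The nuclear gene of the Rubisco small subunit, part of the enzyme that fixes the released CO2, stood at 3945, 3169 and 4340 CPM in epi-F3 low and at 4071 and 2267 CPM in epi-F3 high. It was the only bundle sheath or mesophyll member whose lowest epi-F3 low plant was replicate 2.

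**Figure D2:**
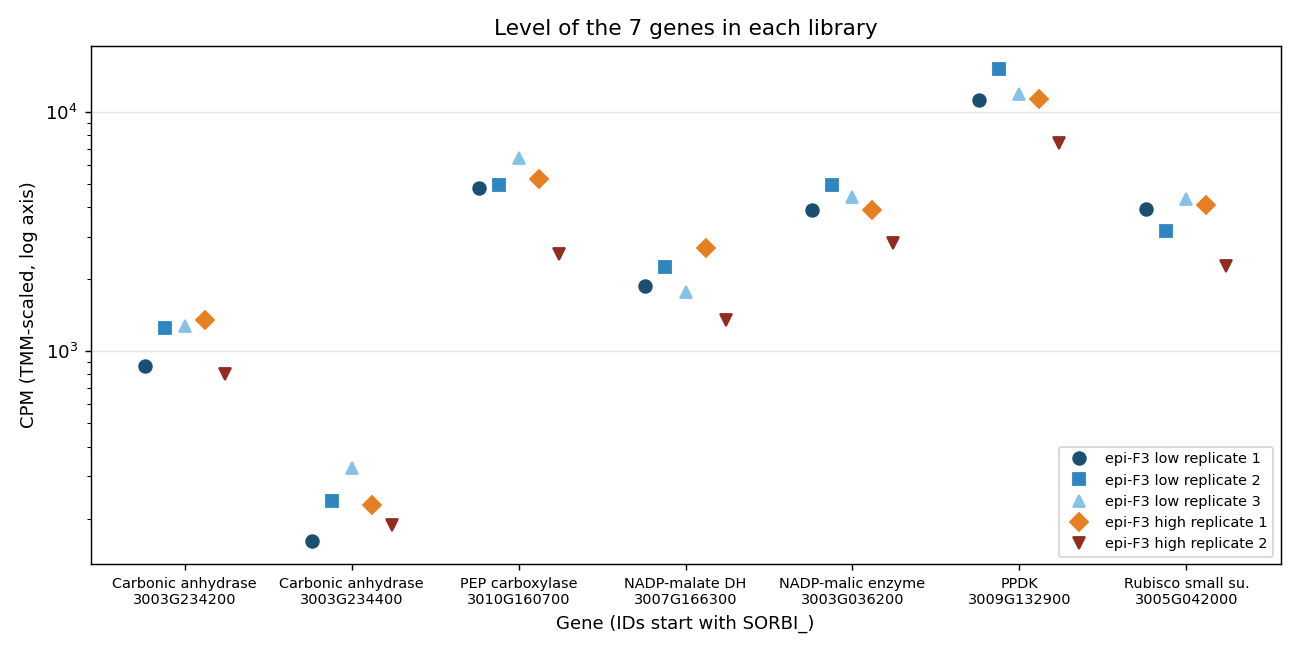
TMM-scaled CPM on a log axis (y) of the 7 genes (x), with 1 symbol per library and epi-F3 low in blue. The downward triangle, epi-F3 high replicate 2, is the lowest point for 6 genes, and the lines overlap for all 7.

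By counts, the order of the genes was the same at both ends in all 5 libraries. PPDK was first, and the last places went to NADP-malate dehydrogenase, SORBI_3003G234200 and SORBI_3003G234400 in this order. PEP carboxylase, NADP-malic enzyme and the Rubisco small subunit filled the places between. PEP carboxylase led this group in 4 libraries, and NADP-malic enzyme led it in epi-F3 high replicate 2. PEP carboxylase was above the Rubisco small subunit in all 5 libraries, with the latter at 0.642 to 0.892 times its counts. NADP-malic enzyme changed places with each of them, so its place in the order differed between plants.

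Comparing the lines asks whether the faster-growing line carries other amounts of C4 transcripts. Of the 7 genes 6 had a lower fitted mean in epi-F3 high and 1 a higher one (limma-voom gave all 7 a lower mean), and no member passed the test. The 23098 tested genes went through the quasi-likelihood test of edgeR with p adjusted after Benjamini and Hochberg, and a call needed a log2 fold change of 0.5 or more in size at an adjusted p no higher than 0.1. It called 0 members and 0.00433% of all tested genes. At an unadjusted p under 0.05 it held 0 members, against 3.22% of tested genes. DESeq2, limma-voom and edgeR's exact test also called 0 members. The CPM ranges of the lines overlapped for all 7 members, while 16.8% of tested genes had no overlap. A lower mean in epi-F3 high was found in 47.4% of tested genes, a share over all levels of abundance. Genes with a mean of at least 100 CPM, which all members have, leaned to a lower mean there, as the median below shows.

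The log2 fold changes ran from -0.47 for PEP carboxylase to 0.05 for NADP-malate dehydrogenase, with a median of -0.27, against 0.02 over all tested genes and -0.14 over the 2339 genes with a mean of at least 100 CPM. For PEP carboxylase the standard error was 0.44 (adjusted p = 0.999 by edgeR), and the approximate 95% interval reached from 0.356-fold to 1.45-fold. PPDK was next, at -0.44 with a standard error of 0.45 and an interval from 0.356-fold to 1.52-fold. NADP-malic enzyme stood at -0.39 with an interval from 0.429-fold to 1.35-fold, and the Rubisco small subunit at -0.27 with one from 0.441-fold to 1.56-fold. The carbonic anhydrases SORBI_3003G234200 and SORBI_3003G234400 stood at -0.07 and -0.21, with intervals from 0.551-fold to 1.64-fold and from 0.524-fold to 1.42-fold. For NADP-malate dehydrogenase the interval was 0.565-fold to 1.88-fold. Every interval is wide enough to hold both a lower and a higher level in epi-F3 high, so equal levels in the lines were not shown for any member.

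**Figure D3:**
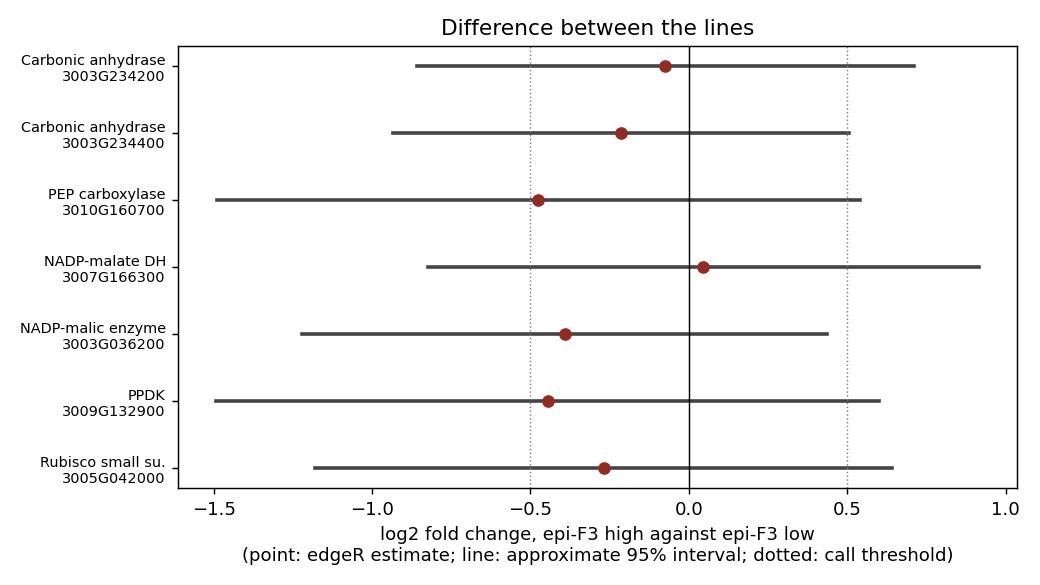
Log2 fold change of epi-F3 high against epi-F3 low (x) for the 7 genes (y), as edgeR's estimate with its approximate 95% interval, and the call threshold of 0.5 as dotted lines. Every interval includes 0, and the estimates lie between -0.47 and 0.05.

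The lower means rested mainly on 1 plant. Epi-F3 high replicate 2 was the lowest library for 6 of the 7 genes, and it was below every epi-F3 low plant for the same 6. Among the 2339 genes with a mean of at least 100 CPM, this plant was the lowest of the 5 for 49.9% and below every epi-F3 low plant for 56.1%. The median log2 ratio of this plant to the epi-F3 low mean was -0.64 over the 7 genes and -0.26 over those 2339. For epi-F3 high replicate 1 the median over the 7 genes was -0.05, and it was above every epi-F3 low plant for 2 genes, NADP-malate dehydrogenase and SORBI_3003G234200, and below every one for 0. Without epi-F3 high replicate 1, PEP carboxylase stood at -1.09 on the log2 scale, and still no member was called, against 0.351% of tested genes. Without epi-F3 high replicate 2, PEP carboxylase stood at -0.05. PPDK stood at -0.78 without replicate 1 and at -0.18 without replicate 2, and NADP-malic enzyme at -0.64 and -0.19. All 7 genes had a lower mean in epi-F3 high when its replicate 1 was left out, and 4 of the 7 when its replicate 2 was. Both fits are left with a single epi-F3 high plant, which is assumed to vary as the epi-F3 low plants do.

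**Figure D4:**
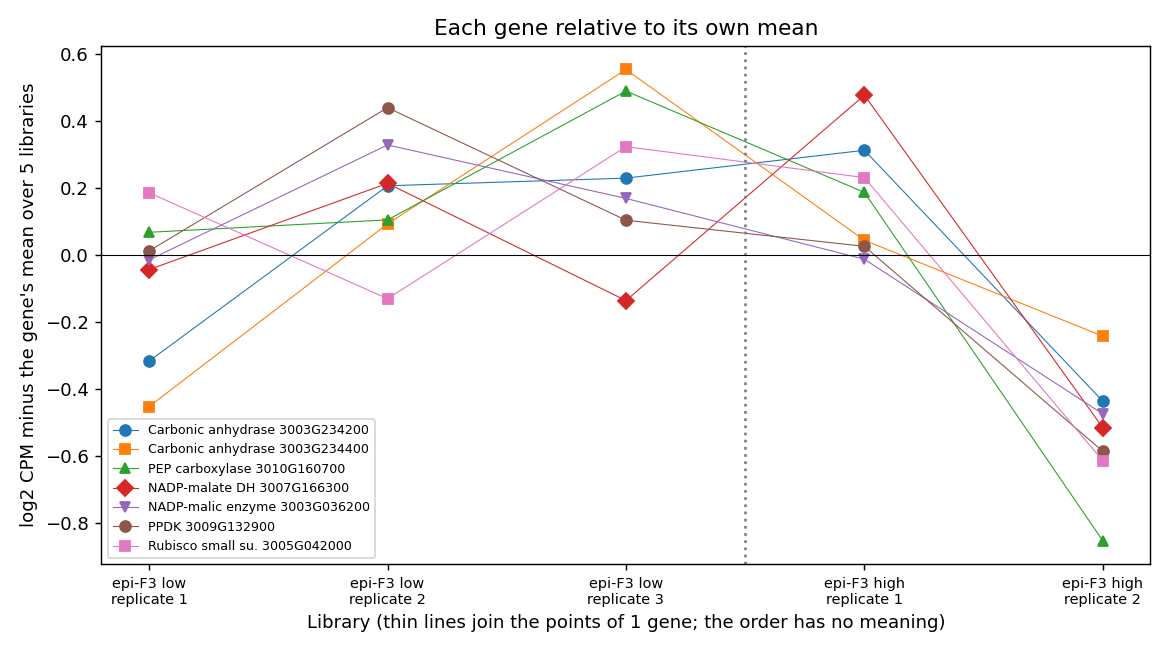
Log2 CPM of each gene minus its mean over the 5 libraries (y), by library (x), with a dotted line between the lines of plants. In epi-F3 high replicate 2 all 7 genes lie below their own mean, and for 6 of them it is their lowest point.

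Over all 5 plants, epi-F3 high replicate 2 included, the C4 genes varied more than the median abundant gene, and within epi-F3 low 5 of the 7 did. The SD of log2 CPM over the 5 libraries was between 0.30 for NADP-malic enzyme and 0.50 for PEP carboxylase, and for all 7 genes it was above 0.26, the median of the 2339 genes with at least 100 CPM. PEP carboxylase was above 92.7% of those genes, the Rubisco small subunit above 80.6% and NADP-malic enzyme above 62.6%. Within epi-F3 low, SORBI_3003G234400 had the largest SD of the 7, 0.50, and NADP-malic enzyme the smallest, 0.17, where the median of the 2339 genes was 0.19. NADP-malate dehydrogenase, at 0.18, was below that median as well. Within epi-F3 high the largest was that of PEP carboxylase, 0.74, and the smallest that of SORBI_3003G234400, 0.20, against a median of 0.26. The gene that differed most between the epi-F3 low plants was thus the one that differed least between the epi-F3 high plants.

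Ratios of counts within a library do not depend on how libraries are scaled. Of the 21 pairs of members, PPDK and NADP-malic enzyme kept the steadiest ratio, a pair singled out after its values were seen. PPDK had 2.88, 3.05 and 2.6997 times the counts of NADP-malic enzyme in the epi-F3 low plants and 2.90 and 2.61 times in the epi-F3 high plants. The SD of this log2 ratio over the 5 libraries was 0.09, although one enzyme works mainly in the mesophyll and the other in the bundle sheath. PEP carboxylase and the Rubisco small subunit were the next steadiest pair, with an SD of 0.20, and NADP-malate dehydrogenase and SORBI_3003G234400 the least steady, with 0.48.

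Against PEP carboxylase, the entry enzyme, the ratios of most members overlapped between the lines. NADP-malic enzyme had 0.809, 1.00 and 0.686 times its counts in epi-F3 low and 0.745 and 1.11 times in epi-F3 high. The Rubisco small subunit had 0.821, 0.642 and 0.674 times in epi-F3 low and 0.78 and 0.892 times in epi-F3 high. NADP-malate dehydrogenase had 0.391, 0.455 and 0.274 times in epi-F3 low and 0.516 and 0.533 times in epi-F3 high. The carbonic anhydrase SORBI_3003G234200 had 0.181, 0.254 and 0.198 times in epi-F3 low and 0.258 and 0.316 times in epi-F3 high. Of the 6 ratios to PEP carboxylase, those of NADP-malate dehydrogenase and SORBI_3003G234200 were the 2 in which the lines did not overlap, and among the 2338 other genes with at least 100 CPM the ratio to PEP carboxylase did not overlap for 14.6%. With 6 ratios that share 1 denominator, nothing particular to these genes can be read from this count. The ratios were not tested, and the smaller gap, for SORBI_3003G234200, was between 0.254 and 0.258.

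The likeness of 2 genes was measured as the root mean square difference of their log2 CPM over the 5 libraries, each centred on its own mean, among genes with a mean of at least 100 CPM. For PPDK the nearest of the 2338 other genes was SORBI_3004G331700, at 0.020, and for NADP-malate dehydrogenase it was SORBI_3003G306200, at 0.023. The nearest gene outside the members was at 0.039 to 0.090 for the other 5. Among the members, PPDK and NADP-malic enzyme were closest, at 0.079, which made NADP-malic enzyme rank 20 among the genes nearest to PPDK. The Rubisco small subunit ranked 27 among those nearest to PEP carboxylase, at 0.18. For NADP-malate dehydrogenase and for SORBI_3003G234200 no member was among the 100 nearest genes. The closest member to NADP-malate dehydrogenase, SORBI_3003G234200, ranked 550, and the closest to SORBI_3003G234200, NADP-malic enzyme, ranked 340. The sources used here do not pair the other IDs with names.

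Further genes of the pathway could be named only from the study's own table, which pairs 5 sorghum genes with Arabidopsis homologs for a PPDK regulatory protein, chlorophyll a-b binding proteins or transketolase. The study chose this table on these samples, so their direction is not independent evidence. None of the 5 was called, against 0.00433% of all tested genes. By edgeR 3 had an unadjusted p under 0.05, against 3.22% of tested genes. *RP1* (SORBI_3002G324700), paired with the regulatory protein that switches PPDK off and on, stood at 15.96, 14.6 and 14.9 CPM in epi-F3 low and at 25.8 and 23.3 CPM in epi-F3 high. Its lines did not overlap, as for 16.8% of all tested genes. The log2 fold change of *RP1* was 0.70 with a standard error of 0.20 (adjusted p = 0.999 by edgeR and 0.225 by DESeq2). *TKL-2* (SORBI_3009G062800), a transketolase of the Calvin cycle, stood at 539, 682 and 695 CPM in epi-F3 low and at 428 and 357 CPM in epi-F3 high, also without overlap (log2 fold change -0.70, adjusted p = 0.999 by edgeR). *LHCB5* (SORBI_3005G087000), a light-harvesting protein of photosystem antennae, stood at 1662, 1817 and 3646 CPM in epi-F3 low and at 978 and 1649.5 CPM in epi-F3 high. Its lowest plant was epi-F3 high replicate 1 and not replicate 2, unlike 6 of the 7 C4 genes. *LHB1B1* (SORBI_3002G289100) had 14, 790 and 56 counts in epi-F3 low and 9 and 27 in epi-F3 high, so that 1 plant held nearly all of them. The other gene paired with *TKL-2*, SORBI_3006G034300, had 31, 7 and 2 counts in epi-F3 low and 106 and 7 in epi-F3 high.

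The 5 loci on each side of the members hold 61 other genes, of which 38 had enough counts to test. None was called, against 0.00433% of all tested genes. Of the 38, 1 had an unadjusted p under 0.05 by edgeR, against 3.22% of tested genes. This was SORBI_3003G036300, next to NADP-malic enzyme, with 22.7, 17.2 and 17.7 CPM in epi-F3 low and 27.5 and 30.4 CPM in epi-F3 high (log2 fold change 0.59, adjusted p = 0.999 by edgeR). SORBI_3007G166200, the locus before NADP-malate dehydrogenase, stood at 189, 204 and 215 CPM in epi-F3 low and at 209 and 121 CPM in epi-F3 high. It too was lowest in epi-F3 high replicate 2. Of the 61 genes, 16 had a mean of 10 CPM or more.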

How the data were processed

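Leaf RNA of 5 plants was sequenced as paired-end reads from TruSeq RNA v2 libraries. Before deposit the authors used TrimGalore! 0.4.1 for trimming, STAR 2.7.3a for alignment to NCBIv3 with unique hits only, and QoRTs 1.3.0 for the count of each gene, with 25 as the lowest mapping quality. The strand setting is not given in the sources used here. The deposited values are raw counts per gene, and 5 rows that name no gene were left out. Reads in no gene were 3.77 to 7.07% per library.

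The filter kept genes whose counts sum to 10 or more over all libraries. The lines were compared with edgeR 4.0.16 (R 4.3.3), TMM scaling and the quasi-likelihood test, with line as the only term. The script was tested on simulated data with changes larger than the members' estimates, so that test does not bear on differences of the members' size. Standard errors and intervals come from the F statistic and are approximate. P-values set the difference between the lines against the spread between plants of a line. Slower and faster growth are each represented by 1 line, so the p-values do not cover the spread between lines. The alternatives tried were limma-voom (limma 3.58.1), DESeq2 1.42.0, edgeR's exact test, RLE scaling, 2 other filters, a block by replicate or plant number and fits that lack 1 library. Named genes are the members, the study's genes for 3 product descriptions, neighbouring loci of at least 10 CPM (2 printed) and the nearest profile of each member (2 printed). A planned list from the gene table could not be made, and ranks per length were not run. Members and lists were chosen with earlier results of these data known. Figures used matplotlib 3.10.9.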

Additional observations from a re-analysis of the deposited data

How the results depend on the processing

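Members called stayed at 0 under all 13 alternatives, while calls over all genes ranged from 0 to 81. Leaving out 1 library, the median log2 fold change of the members ranged from -0.642 (epi-F3 high replicate 1 left out) to -0.0526 (epi-F3 high replicate 2 left out). Single values ranged from -0.497 to 0.246 for SORBI_3003G234200, from -0.453 to 0.0653 for SORBI_3003G234400, from -0.535 to 0.453 for NADP-malate dehydrogenase, from -0.752 to 0.0867 for the Rubisco small subunit, from -0.783 to -0.176 for PPDK, from -0.642 to -0.186 for NADP-malic enzyme and from -1.09 to -0.0526 for PEP carboxylase, the lower end of the last 3 without epi-F3 high replicate 1 and the upper without replicate 2. Outside the members they ranged from -0.891 to 3.81 for SORBI_3006G034300 and from -0.744 to 0.0381 for SORBI_3007G166200. The cause of these changes was not tested, beyond that the library left out differs.

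The block by replicate number left out epi-F3 low replicate 3, which has no partner in epi-F3 high. With this block the log2 fold change was 0.0844 for SORBI_3003G234400 and -0.101 for NADP-malate dehydrogenase. Leaving out the same library without a block already gave 0.0653 and -0.0242. With limma-voom on all libraries the value for NADP-malate dehydrogenase was -0.0173. The block by replicate number called 7 genes, against 0 without a block when the same library was left out. The block by plant number called 70, against 1 without it. Plant 2 occurs only in epi-F3 low, so under this block its library adds nothing to the difference between the lines. Of all these calls, 0 were members. Deviations of plants from their line means had correlations of 0.0581 and 0.474 for equal plant numbers and -0.489 for replicate 2. The deviations of a line sum to 0, and those of the 2 epi-F3 high plants mirror each other. These correlations are thus tied and are not separate checks of a pairing. No label says that a number marks a shared batch. Over all genes DESeq2 called 68, the exact test 51, the test without a filter 12, and limma-voom and filterByExpr 0. Under RLE scaling the SD of log2 CPM moved by less than the spread between plants. So did the shares of counts when taken from TMM CPM or without the 10 most abundant other genes. Leaving out 1 plant moved the share of epi-F3 high to 1.90 or 2.88%. With 2 or 3 plants such a move is below their SD whatever the values, so it says nothing about stability. With 2 plants in epi-F3 high, the intervals of the members set what could be seen: a level lower by a factor of 0.5 lay within the interval of 4 of the 7 genes.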
